A study of Homo sapiens with 6 samples.

Results

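Transcripts of 29 genes for lysosomal enzymes, lysosomal membrane proteins and their regulators were followed in T24, a cell line established from a carcinoma of the human bladder. The genes were taken by symbol from a list of proteases, glycosidases, lipid-handling proteins, membrane proteins, proton pump subunits, transcription factors and an autophagy receptor. All 29 were found once each among the 58825 genes of the expression table, and all 29 were expressed well enough to be tested. The cells carried either the hairpin shDLGAP5-1, against DLGAP5, whose protein binds spindle microtubules in mitosis, or the control hairpin shNC-1, whose genotype label is WT. There were 3 sequencing libraries of each group, and all were grown in the same serum-containing medium. A single hairpin against DLGAP5 was used, so effects of the loss of DLGAP5 and of that hairpin sequence cannot be told apart.

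Lysosomes are acidic compartments in which proteases, glycosidases and lipid hydrolases break down material delivered by endocytosis and autophagy. The vacuolar proton pump (V-ATPase) acidifies them, and heavily glycosylated membrane proteins such as LAMP1 and LAMP2 line them. Many lysosomal genes carry in their promoters an E-box of the CLEAR type, which the related transcription factors TFEB and TFE3 bind. The kinase complex mTORC1, at the lysosomal surface, phosphorylates these factors and keeps them in the cytosol, a step that transcript levels do not show.

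The values are FPKM, fragments scaled by transcript length and by sequencing depth, which allow levels to be compared between genes. Library totals were 431491 to 487559 FPKM in shDLGAP5-1 and 413001 to 435077 FPKM in shNC-1. Approximate depths were 14100000 to 19200000 fragments in shDLGAP5-1 and 22300000 to 28400000 in shNC-1. DLGAP5 stood at 4.0 to 7.51 FPKM in the shDLGAP5-1 libraries, against 29.7 to 33.0 FPKM in the shNC-1 libraries. This set the 2 groups apart in the direction of their labels, but it cannot check the replicate numbers. The keratins KRT7, KRT8 and KRT18 and vimentin, VIM, ran at 237 FPKM or more in all 6 libraries, while the urothelial markers UPK1B and UPK2 and the epithelial cadherin CDH1 did not exceed 0.201 FPKM. The epithelial marker EPCAM ran from 0.765 to 1.18 FPKM, and the keratin KRT19 fell (log2 fold change −0.76, limma adjusted p = 0.00438). The library shDLGAP5-1 replicate 3 held myeloid transcripts, and the urothelial marker UPK3A was at 2.28 FPKM there and listed at 0 in the other 5 libraries. Of 18 leukocyte markers 13 reached 1 FPKM there, against 3 or 4 in each of the other libraries. Their sum was 1827 FPKM there and 499.9 and 359.7 FPKM in shDLGAP5-1 replicates 1 and 2, against 462.1 to 507.9 FPKM in shNC-1. SRGN alone made up 345 to 1013 FPKM of these sums. LYZ, lysozyme, stood at 686 FPKM in shDLGAP5-1 replicate 3. It was at 21.1 FPKM in shNC-1 replicate 3, at 11.9 FPKM in shDLGAP5-1 replicate 1 and at 0.60 to 2.48 FPKM in the other libraries. The lymphocyte markers CD3E and MS4A1 were listed at 0 in all 6. Not every myeloid marker stood out in shDLGAP5-1 replicate 3. CD14 was at 0.482 FPKM there and at 0.536 and 0.468 FPKM in shDLGAP5-1 replicates 1 and 2. All 3 values lay above those of shNC-1, at 0.232, 0.128 and 0.132 FPKM. HLA-DRA was at only 0.113 FPKM in replicate 3. Among the same markers CD74, the invariant chain, was higher in every shDLGAP5-1 library, at 10.5, 11.2 and 14.8 FPKM, against 3.00, 2.76 and 2.51 FPKM in shNC-1. The endothelial marker PECAM1 was at 8.45 FPKM in shDLGAP5-1 replicate 3 and at most 0.388 FPKM elsewhere. Fibroblast markers were highest in shNC-1 replicate 1, where 7 of them summed to 6.80 FPKM, against 1.45 to 3.16 FPKM in the other libraries. COL1A2 and DCN were at 1.66 and 1.52 FPKM there, and at most 0.0536 and 0.0629 FPKM elsewhere. LAPTM5, a leukocyte marker, stood at 2.02, 1.99 and 34.7 FPKM in shDLGAP5-1, against 0.415, 0.347 and 0.992 FPKM in shNC-1. Leukocytes express many lysosomal genes, so results are also given without shDLGAP5-1 replicate 3. That fit still held differences in leukocyte markers. Of 5 tested there, 2 were higher, LAPTM5 and CD74 (limma adjusted p = 0.0204 and 0.00165), and 0 lower. Separate cultures are not stated in the labels, so each p-value reflects the spread between these libraries alone, which may be technical.

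Lysosomal transcripts did not move as a block. CTSH, PSAP, TFEB, MAN2B1, GAA and GUSB rose in shDLGAP5-1 cells, NEU1 and CTSL fell, and the other 21 members did not pass the test. The test was limma on log2(FPKM + 1), run over the 12714 genes that reached 1 FPKM in 3 or more libraries. A gene passed where its p, adjusted over all these genes by the Benjamini-Hochberg method, was under 0.05. The 8 members that passed are 27.6% of 29, where 24.8% of all tested genes passed. In all genes 15.3% passed as higher and 9.52% as lower. The groups did not overlap for 14 members, 8 higher and 6 lower in shDLGAP5-1, which is 48.3%, against 43.9% of all tested genes. The share of changed members was thus close to that of genes at large. The median log2 fold change of the members was 0.05, against 0.03 for all tested genes. The balance of directions depended on scaling: the members' calls were 6 higher and 2 lower, but 4 and 4 with equal library totals, 6 and 4 after quantile normalization, and 5 and 5 with each library's trend over transcript length removed. Of the calls over all genes 61.6% were higher ones, against 48.7% to 52.4% under these scalings and the median-ratio one. Without shDLGAP5-1 replicate 3, 8 members passed again, 6 higher and 2 lower, where 24.7% of all genes did: CTSL and GUSB were lost, and ASAH1, higher, and MCOLN1, lower, were gained. Leaving out most other libraries lowered the count of members, and that of all genes too, from 3155 of 12714. Without shNC-1 replicate 1 or without shNC-1 replicate 2, 3 members passed, where 1511 and 1335 of all genes did. Without shDLGAP5-1 replicate 2, 4 members and 2056 of all genes passed, and without shNC-1 replicate 3, 5 members and 1937. Each of these fits had 0 members lower in limma. Without shDLGAP5-1 replicate 1, 5 members were higher and 3 lower, where 2728 of all genes passed. CTSH, PSAP and TFEB passed in each of the 6 fits that left out 1 library.

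**Figure D1:**
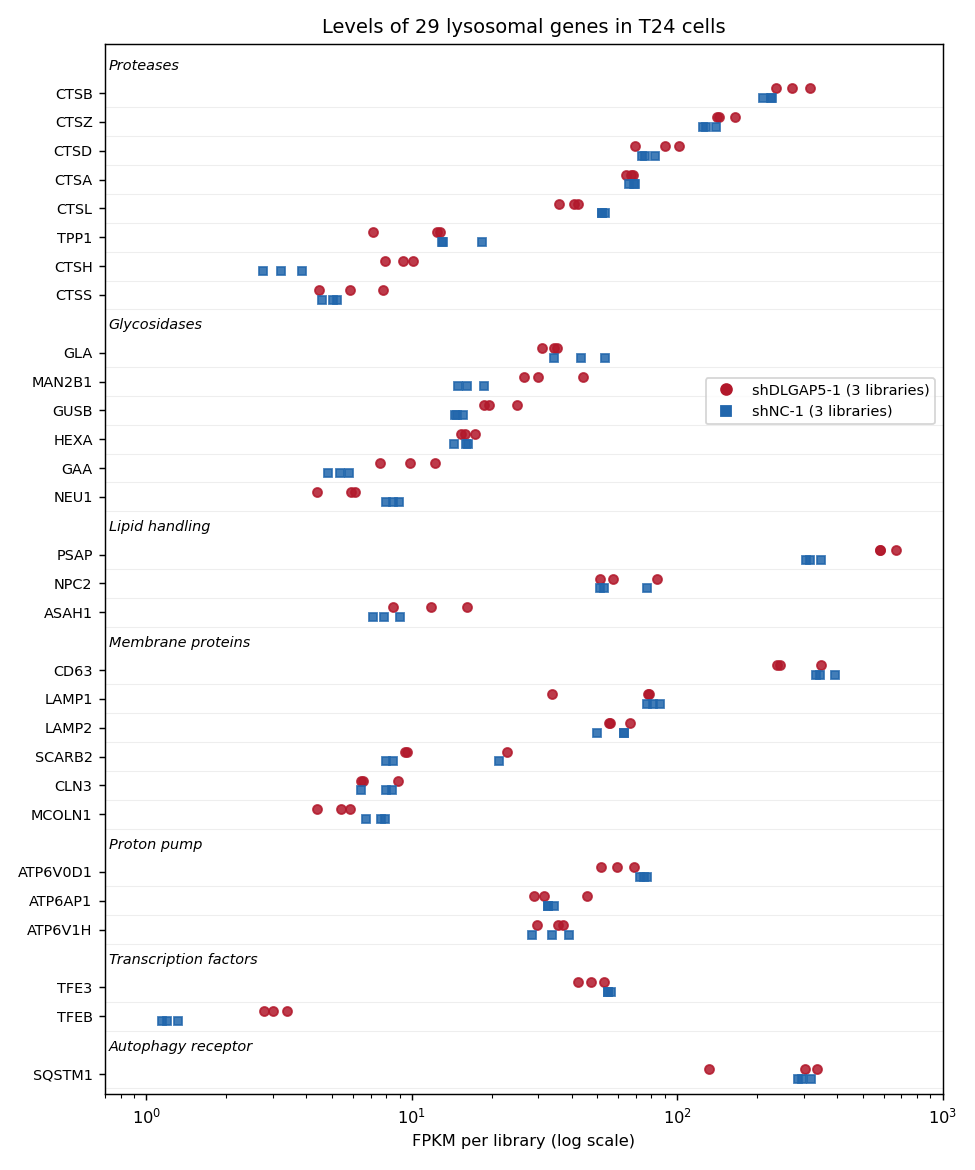
FPKM of the 29 lysosomal genes on a log axis, grouped by role and ordered by level within each role. Circles are the 3 shDLGAP5-1 libraries and squares the 3 shNC-1 libraries. The groups are wide apart for CTSH, PSAP, TFEB and MAN2B1 and interleave for most others.

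**Figure D2:**
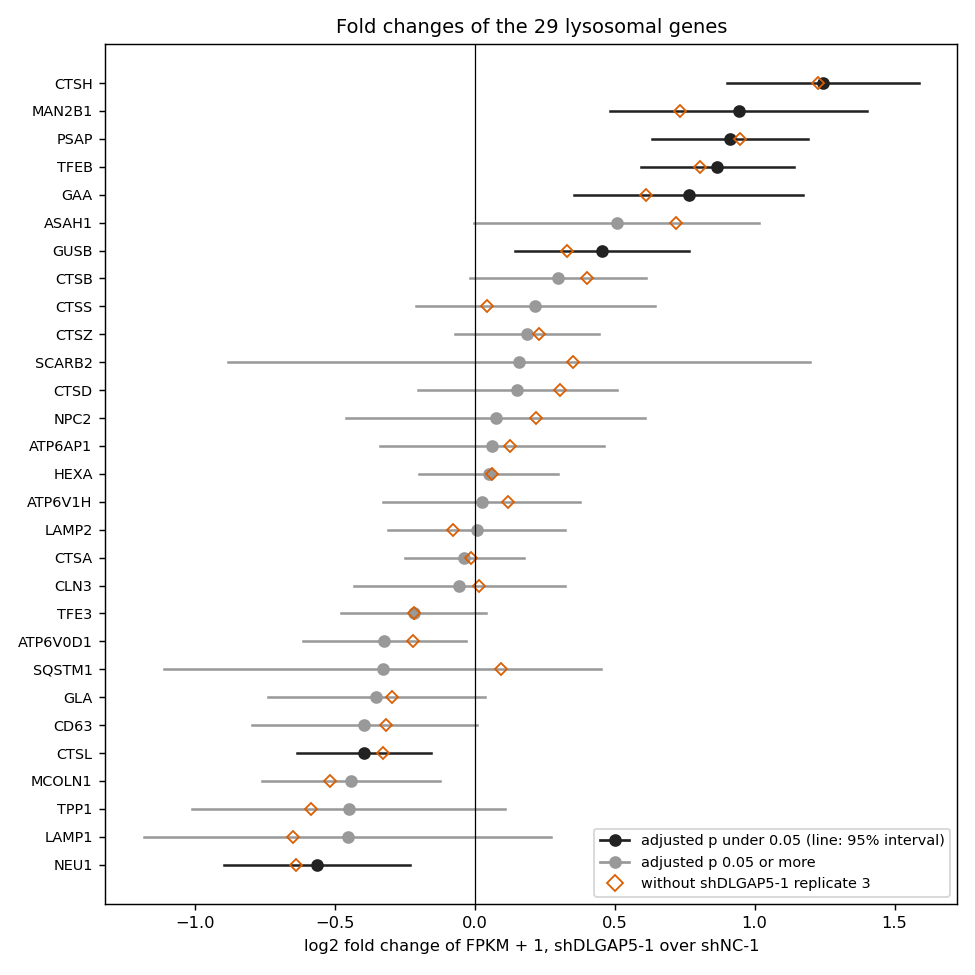
Log2 fold changes of the 29 genes, shDLGAP5-1 over shNC-1, with 95% intervals. Black marks the 8 genes with an adjusted p under 0.05, and open diamonds give the value without shDLGAP5-1 replicate 3, which lies on the other side of 0 for SQSTM1, LAMP2 and CLN3.

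The transcription factors came out differently. TFEB (ENSG00000112561, chr6:41683978-41736259, minus strand, coordinates as in the files, build GRCh38, here and for the other genes) stood at 2.99, 2.77 and 3.40 FPKM in shDLGAP5-1 replicates 1 to 3, against 1.20, 1.14 and 1.32 FPKM in shNC-1 replicates 1 to 3. It was the lowest of the 29 in level, yet every shDLGAP5-1 library lay above every shNC-1 library. Its mean of 3.05 ± 0.317 FPKM was 2.50 times the shNC-1 mean of 1.22 ± 0.0911 FPKM (SD, n = 3 each). On the scale of FPKM + 1, which understates the change of so low a gene, the log2 fold change was 0.87 (limma standard error 0.12, adjusted p = 0.00348). Without shDLGAP5-1 replicate 3, which had the highest TFEB level, it was 0.81 (limma adjusted p = 0.00789). TFE3, a relative that recognises the same element, stood at 42.3, 52.9 and 47.5 FPKM in shDLGAP5-1, against 56.1, 54.9 and 54.8 FPKM in shNC-1. The shDLGAP5-1 libraries were all lower, but the log2 fold change of −0.22 (standard error 0.11) did not pass (limma adjusted p = 0.191). TFE3 was the more abundant factor throughout. TFEB amounted to 7.06%, 5.24% and 7.15% of TFE3 in shDLGAP5-1 libraries, against 2.13%, 2.08% and 2.41% in shNC-1 libraries. This ratio, and the other ratios between members given here, were chosen after the values were seen and are descriptions.

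The letters that these factors recognise can be shown for the members with a promoter sequence in RefSeq (GRCh38.p14, 250 bases before to 50 after each start). A window was found for 22 of the 29, and HEXA, LAMP2, CTSS, CTSB, PSAP, ASAH1 and ATP6V1H had none. The E-box core CACGTG, which reads the same on both strands, was in 9 of the 22 (40.9%), and in 12.7% of the 9256 tested genes with a window. The longer TCACGTGA, which contains it and is also its own reverse complement, was in 6 of the 22 (27.3%), against 2.40% of the tested genes. TCACGTG, the form between them, was searched on both strands and was in 8 of the 22 (36.4%), against 7.34%. Many lysosomal genes are known to carry this element, as said above. These shares therefore describe the list and are not a result of the hairpin. The sites below are from the members that hold CACGTG, most of which did not pass the test. Capitals mark TCACGTGA or, where only the core is present, CACGTG, and positions count back from the start of transcription, the base before it being −1.

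GAA, first base at −76, chr17:80101493-80101522, plus strand: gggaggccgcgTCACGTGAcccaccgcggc
GAA, first base at −31, chr17:80101538-80101567, plus strand: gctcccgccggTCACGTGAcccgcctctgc
MCOLN1, first base at −41, chr19:7522571-7522600, plus strand: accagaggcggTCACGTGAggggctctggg
MCOLN1, first base at −14, chr19:7522598-7522627, plus strand: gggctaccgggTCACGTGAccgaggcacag
LAMP1, first base at −28, chr13:113297199-113297228, plus strand: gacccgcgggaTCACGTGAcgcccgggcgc
LAMP1, first base at −1, chr13:113297226-113297255, plus strand: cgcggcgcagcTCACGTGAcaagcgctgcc
CTSA, first base at −25, chr20:45891298-45891327, plus strand: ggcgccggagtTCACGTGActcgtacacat
ATP6V0D1, first base at −59, chr16:67481199-67481228, minus strand: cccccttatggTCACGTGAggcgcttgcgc
CLN3, first base at −1, chr16:28492058-28492087, minus strand: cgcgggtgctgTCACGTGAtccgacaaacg
NEU1, first base at −126, chr6:31862930-31862959, minus strand: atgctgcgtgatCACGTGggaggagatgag
CTSD, first base at −47, chr11:1763957-1763986, minus strand: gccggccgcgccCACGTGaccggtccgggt
CD63, first base at −180, chr12:55729172-55729201, minus strand: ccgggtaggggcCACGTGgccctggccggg

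The position given is that of the first base of CACGTG. Some members, among them CD63 and CLN3, have windows for more than 1 annotated start. Such a member was counted if any of its windows held CACGTG, and a position counts from 1 of its starts. For CD63 only 1 window, chr12:55728960-55729259, holds it. LAMP1 held most copies, 6 in its window, of which 5 lie in the stretch before its start that is printed here in full, with CACGTG in capitals.

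LAMP1, chr13:113297029-113297237, plus strand: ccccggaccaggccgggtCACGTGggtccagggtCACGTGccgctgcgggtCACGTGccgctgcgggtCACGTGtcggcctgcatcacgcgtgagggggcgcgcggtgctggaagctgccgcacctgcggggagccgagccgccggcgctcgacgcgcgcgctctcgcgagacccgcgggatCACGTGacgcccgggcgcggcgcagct

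Of the 9 members with CACGTG (ATP6V0D1, CD63, CLN3, CTSA, CTSD, GAA, LAMP1, MCOLN1 and NEU1), 1 rose, GAA, 1 fell, NEU1, and 7 did not pass. Of the 13 with a window and without CACGTG, 4 rose, among them CTSH and TFEB itself, 1 fell, CTSL, and 8 did not pass. Over all tested genes 24.8% passed, and the share among all tested genes with or without CACGTG was not counted. A difference in response between members with and without the element was not tested. GAA, MCOLN1 and LAMP1 each hold 2 copies of TCACGTGA near their start. GAA was higher in every shDLGAP5-1 library, MCOLN1 was lower in every one without passing the test, and the groups overlapped for LAMP1.

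Among the 8 proteases CTSH rose, CTSL fell and 6 did not pass. CTSH (ENSG00000103811, chr15:78921058-78949574, minus strand), a papain-type cysteine protease with aminopeptidase activity, stood at 7.94, 10.1 and 9.30 FPKM in shDLGAP5-1, against 2.75, 3.23 and 3.84 FPKM in shNC-1. This was the largest fold among the 29, with means of 9.11 ± 1.08 FPKM in shDLGAP5-1 and 3.27 ± 0.548 FPKM in shNC-1 (SD, n = 3 each), a ratio of 2.78. The log2 fold change was 1.24 (limma standard error 0.15, adjusted p = 0.00228), and 1.23 without shDLGAP5-1 replicate 3. CTSL (ENSG00000135047, chr9:87726109-87731469, plus strand), a papain-type endopeptidase, stood at 42.4, 41.0 and 36.0 FPKM in shDLGAP5-1, against 53.6, 52.3 and 51.9 FPKM in shNC-1. The shNC-1 libraries lay close together and above all shDLGAP5-1 libraries, and the log2 fold change was −0.40 (limma standard error 0.10, adjusted p = 0.0305). That call was lost without any single library other than shDLGAP5-1 replicate 1, with limma adjusted p of 0.0592 to 0.111. It was also lost with replicate number as a block. The 7 annotated pseudogenes of CTSL were listed at 0 in all libraries.

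The most abundant protease transcript was that of CTSB, a papain-type protease that tumour cells can also release. It stood at 271, 317 and 235 FPKM in shDLGAP5-1, against 211, 225 and 229 FPKM in shNC-1. All shDLGAP5-1 libraries were higher, 235 only just, and the log2 fold change of 0.30 did not pass (limma adjusted p = 0.148). As CTSB and CTSL lay on opposite sides, their ratio separated the groups: CTSB was at 638%, 774% and 653% of CTSL in shDLGAP5-1, against 394%, 431% and 440.4% in shNC-1. CTSZ, a cysteine carboxypeptidase, averaged 150.0 ± 13.3 FPKM in shDLGAP5-1 and 132 ± 7.74 FPKM in shNC-1. Its groups nearly met, at 140.9 FPKM in shDLGAP5-1 replicate 3 and 140.3 FPKM in shNC-1 replicate 3, and it did not pass (limma adjusted p = 0.255).

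CTSD, the aspartic protease, averaged 86.9 ± 16.3 FPKM in shDLGAP5-1 and 77.3 ± 4.35 FPKM in shNC-1, and its groups overlapped. CTSS, a cysteine protease of antigen-presenting cells, stood at 5.84, 4.47 and 7.78 FPKM in shDLGAP5-1, against 5.21, 5.03 and 4.60 FPKM in shNC-1. Its highest value was in the library with myeloid transcripts. The log2 fold change was 0.22 with that library and 0.04 without it, and neither passed (limma adjusted p = 0.420 and 0.848). TPP1, a tripeptidyl peptidase, stood at 7.11, 12.4 and 12.8 FPKM in shDLGAP5-1, against 18.5, 13.1 and 13.0 FPKM in shNC-1. Replicate 1 was the lowest library in shDLGAP5-1 and the highest in shNC-1, while the other 4 lay between 12.4 and 13.1 FPKM, and the log2 fold change was −0.45 (limma adjusted p = 0.207). CTSA, a carboxypeptidase that shields NEU1 in a complex, averaged 66.4 ± 1.86 FPKM in shDLGAP5-1 and 68.2 ± 1.97 FPKM in shNC-1. The 95% interval of its ratio, on the scale of FPKM + 1, ran from 0.841 to 1.13.

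**Figure D3:**
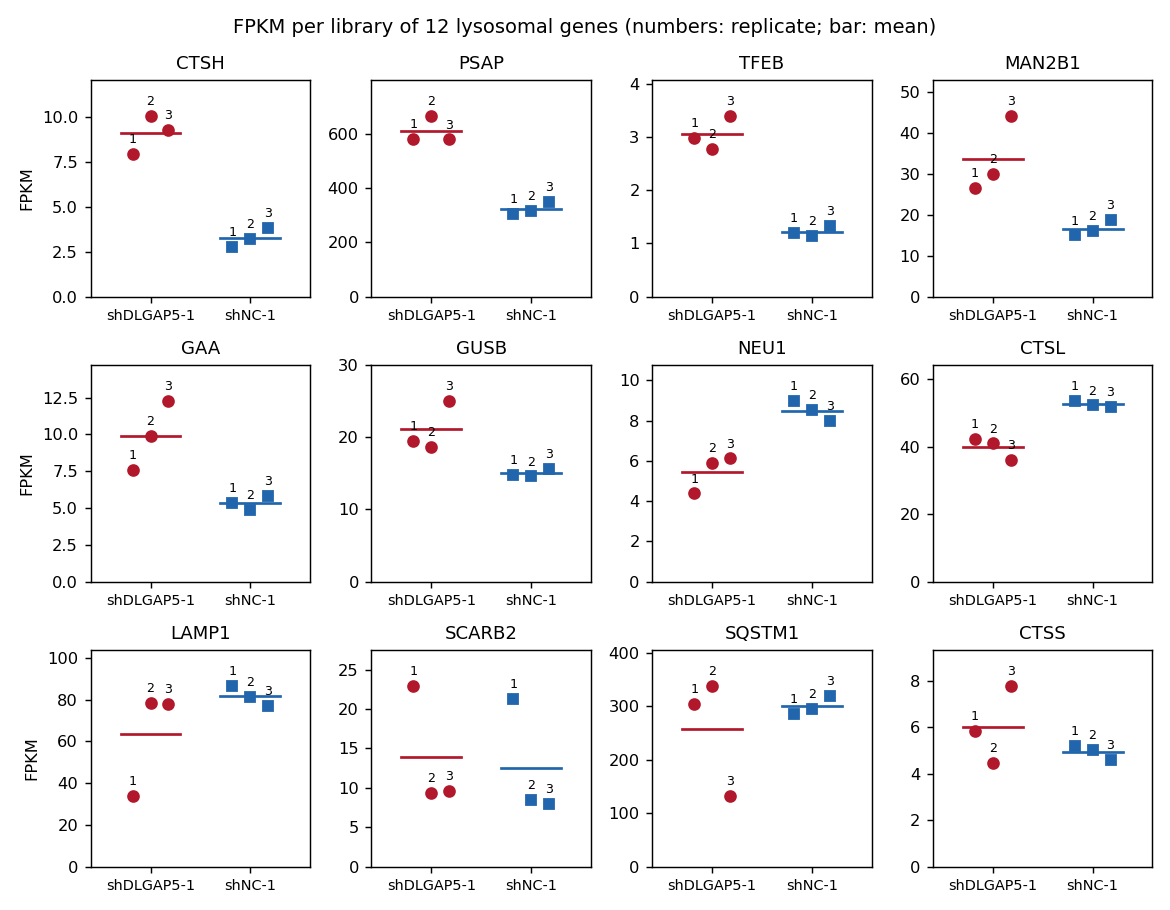
FPKM per library of 12 of the genes, each panel starting at 0, with shDLGAP5-1 as circles and shNC-1 as squares, the replicate number beside each point and the mean as a bar. The first 8 panels are the genes that passed the test. LAMP1, SCARB2 and SQSTM1 show single libraries far from the rest of their group. These are shDLGAP5-1 replicate 1 for LAMP1, replicate 1 of both groups for SCARB2, and shDLGAP5-1 replicate 3 for SQSTM1. For CTSS the shDLGAP5-1 libraries are spread, with replicate 3 the highest.

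Of the 6 glycosidases MAN2B1, GAA and GUSB rose, NEU1 fell, and GLA and HEXA did not pass. MAN2B1 (ENSG00000104774, chr19:12646511-12666742, minus strand), an alpha-mannosidase of glycoprotein breakdown, stood at 26.4, 29.8 and 44.1 FPKM in shDLGAP5-1, against 14.9, 16.1 and 18.7 FPKM in shNC-1. GAA (ENSG00000171298, chr17:80101556-80119881, plus strand), the acid alpha-glucosidase that degrades glycogen, stood at 7.59, 9.87 and 12.3 FPKM in shDLGAP5-1, against 5.35, 4.85 and 5.80 FPKM in shNC-1. GUSB (ENSG00000169919, chr7:65960684-65982215, minus strand), beta-glucuronidase, stood at 19.5, 18.7 and 25.0 FPKM in shDLGAP5-1, against 14.8, 14.6 and 15.6 FPKM in shNC-1. For all 3 the groups did not overlap, and shDLGAP5-1 replicate 3, the library with myeloid transcripts, was the highest. The part of those transcripts in these levels was not tested beyond leaving the library out. With it the log2 fold changes were 0.94, 0.76 and 0.45 for MAN2B1, GAA and GUSB (limma adjusted p = 0.0152, 0.0206 and 0.0440). Without it they were 0.73, 0.61 and 0.33, of which MAN2B1 and GAA passed (limma adjusted p = 0.0156 and 0.0337) and GUSB did not (limma adjusted p = 0.0670). Fits without some of the other libraries also lost calls: MAN2B1 without shNC-1 replicate 1 or 2 (limma adjusted p = 0.0574 and 0.0557), GAA without these or shDLGAP5-1 replicate 2 (0.0617 to 0.0780), and GUSB without any single library (0.0541 to 0.143). Other settings lost calls too: all 3 genes without the filter, and GAA and GUSB with equal library totals. GUSB also lost its call with length trends removed and with replicate number as a block. GUSB has 10 annotated pseudogene copies, at up to 5.56 FPKM, that can share its reads, so its level is uncertain. MAN2B1 overlaps AC010422.3 on the same strand, at 3.32 FPKM, so reads may be shared.

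NEU1 (ENSG00000204386, chr6:31857659-31862906, minus strand), the lysosomal sialidase, stood at 4.38, 5.89 and 6.13 FPKM in shDLGAP5-1, against 8.98, 8.53 and 8.01 FPKM in shNC-1. The groups were apart, and the log2 fold change was −0.56 (limma standard error 0.14, adjusted p = 0.0282). The call was lost without shDLGAP5-1 replicate 2 or any shNC-1 library, with limma adjusted p of 0.0546 to 0.0993. It was also lost without the filter and with replicate number as a block. Set against CTSA, described above, NEU1 was at 6.55%, 8.67% and 9.52% of CTSA in shDLGAP5-1, against 13.6%, 12.3% and 11.6% in shNC-1. GLA, alpha-galactosidase A, averaged 33.5 ± 2.30 FPKM in shDLGAP5-1 and 43.6 ± 9.52 FPKM in shNC-1. It did not pass (log2 fold change −0.35, limma adjusted p = 0.162) except with length trends removed (0.0346). GLA overlaps the read-through RPL36A-HNRNPH2, at 79.4 FPKM, on the other strand, so reads may be shared and its level is uncertain. HEXA, the alpha subunit of beta-hexosaminidase A, averaged 16.2 ± 0.996 FPKM in shDLGAP5-1 and 15.6 ± 0.967 FPKM in shNC-1, and the 95% interval of its ratio ran from 0.872 to 1.23.

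PSAP (ENSG00000197746, chr10:71816298-71851325, minus strand) was the most abundant of the 29 and rose. It encodes prosaposin, the precursor of the saposins that help sphingolipid hydrolases reach their substrates. Its levels were 581, 666 and 579.5 FPKM in shDLGAP5-1, against 305, 315 and 349 FPKM in shNC-1. The groups were far apart, with means of 609 ± 49.8 FPKM in shDLGAP5-1 and 323 ± 22.8 FPKM in shNC-1 (SD, n = 3 each), a ratio of 1.89. The log2 fold change was 0.91 (limma standard error 0.12, adjusted p = 0.00310), and 0.95 without shDLGAP5-1 replicate 3, so the gain was as large without the library that held myeloid transcripts. PSAP took 24.4%, 26.7% and 28.2% of the summed FPKM of the 29 genes in shDLGAP5-1, against 15.1%, 15.3% and 15.8% in shNC-1. The sum of all 29 was 2379, 2500.0 and 2054 FPKM in shDLGAP5-1, against 2023, 2060.0 and 2203 FPKM in shNC-1. Without PSAP it was 1798, 1833 and 1475 FPKM in shDLGAP5-1, against 1718, 1745 and 1854 FPKM in shNC-1. Both sums overlapped between the groups. In bulk RNA such as this, fewer cells of a type and less RNA per cell cannot be told apart.

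ASAH1, acid ceramidase, stood at 11.8, 16.1 and 8.48 FPKM in shDLGAP5-1, against 9.01, 7.16 and 7.84 FPKM in shNC-1. The lowest shDLGAP5-1 value, in replicate 3, lay within the shNC-1 range. The log2 fold change was 0.51 with that library (limma adjusted p = 0.131) and 0.72 without it (limma adjusted p = 0.0296). NPC2, the soluble sterol carrier, ran from 51.2 to 84.0 FPKM in shDLGAP5-1 and from 51.4 to 77.1 FPKM in shNC-1, and the groups overlapped.

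**Figure D4:**
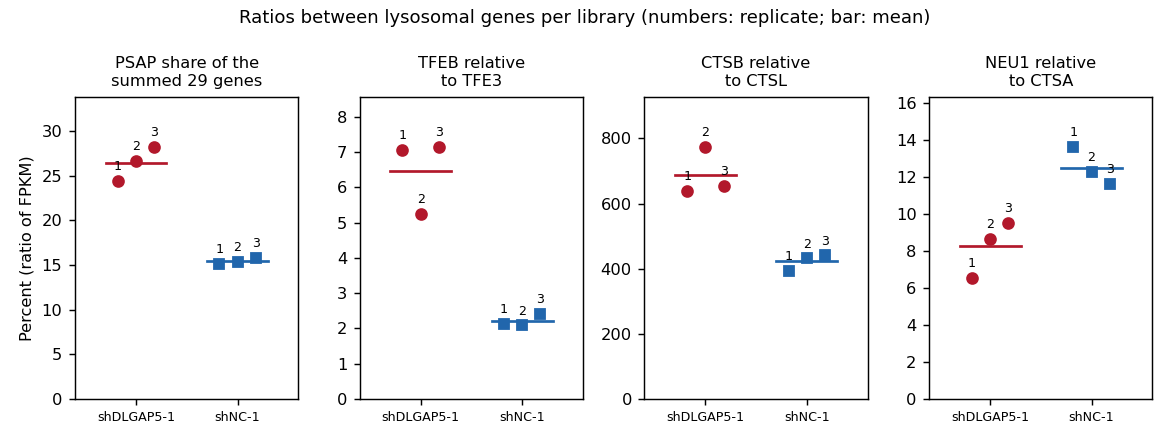
Ratios between lysosomal transcripts in each library, as percent of FPKM: PSAP as a share of the summed 29 genes, TFEB relative to TFE3, CTSB relative to CTSL and NEU1 relative to CTSA. Circles are shDLGAP5-1 and squares shNC-1, numbered by replicate, with the mean as a bar. The groups did not overlap in any of the 4 panels, which were chosen after the values were seen.

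Of the 6 membrane proteins 0 passed the limma test, where MCOLN1, lower, had an unadjusted p under 0.05. Under other scalings CD63 and MCOLN1 passed as lower. LAMP1 stood at 33.7, 78.4 and 77.8 FPKM in shDLGAP5-1, against 86.4, 81.2 and 76.8 FPKM in shNC-1. Replicate 1 of shDLGAP5-1 was far below the other 5 libraries, which lay between 76.8 and 86.4 FPKM, and the log2 fold change was −0.45 (limma standard error 0.31, adjusted p = 0.318). LAMP2 averaged 59.0 ± 6.18 FPKM in shDLGAP5-1 and 58.9 ± 7.64 FPKM in shNC-1, and the 95% interval of its ratio ran from 0.807 to 1.25. SCARB2, the receptor that carries glucocerebrosidase to lysosomes, stood at 22.9, 9.41 and 9.58 FPKM in shDLGAP5-1, against 21.3, 8.49 and 7.97 FPKM in shNC-1. Its spread lay between replicate 1 and the others in both groups rather than between the groups.

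CD63, a tetraspanin of late endosomes and exosomes, was the second most abundant member. It stood at 347, 237 and 243 FPKM in shDLGAP5-1, against 334, 347 and 395 FPKM in shNC-1. Replicates 2 and 3 of shDLGAP5-1 were below all others, while replicate 1 lay within the shNC-1 range, and the log2 fold change was −0.40 (limma adjusted p = 0.135). Without shDLGAP5-1 replicate 1 it was −0.57 (limma adjusted p = 0.0218). CD63 also passed as lower with equal library totals, quantile normalization or length trends removed (limma adjusted p = 0.0369, 0.0409 and 0.0153). MCOLN1, the TRPML1 channel for calcium release, stood at 4.38, 5.41 and 5.87 FPKM in shDLGAP5-1, against 6.73, 7.89 and 7.66 FPKM in shNC-1. The groups were apart, and its log2 fold change of −0.44 narrowly missed the threshold (limma adjusted p = 0.0522). MCOLN1 passed as lower with median-ratio scaling, quantile normalization or length trends removed (limma adjusted p = 0.0288, 0.0232 and 0.0208), and without shDLGAP5-1 replicate 3 (0.0417). Its annotation overlaps PNPLA6, at 17.3 FPKM, so reads may be shared. CLN3, battenin, averaged 7.31 ± 1.38 FPKM in shDLGAP5-1 and 7.60 ± 1.05 FPKM in shNC-1, with overlapping groups.

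Of the 3 proton pump genes 0 passed the limma test, where ATP6V0D1, lower, had an unadjusted p under 0.05. ATP6V0D1, subunit d1 of the membrane sector, stood at 59.5, 68.6 and 51.6 FPKM in shDLGAP5-1, against 75.0, 72.4 and 76.9 FPKM in shNC-1. All shDLGAP5-1 libraries were lower, and the log2 fold change was −0.32 (limma adjusted p = 0.0990, and 0.0460 with equal library totals). ATP6V1H, subunit H of the cytosolic sector, averaged 34.1 ± 3.94 FPKM in shDLGAP5-1 and 33.7 ± 5.40 FPKM in shNC-1. ATP6AP1, an accessory protein of the pump, averaged 35.4 ± 8.92 FPKM in shDLGAP5-1 and 33.2 ± 0.875 FPKM in shNC-1, with 45.6 FPKM in shDLGAP5-1 replicate 1.

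SQSTM1, or p62, the receptor that brings ubiquitinated cargo to autophagosomes, stood at 304, 337 and 132 FPKM in shDLGAP5-1, against 286, 295 and 319.6 FPKM in shNC-1. Only shDLGAP5-1 replicate 3 was outside the range of 286 to 337 FPKM. The log2 fold change was −0.33 with that library and 0.09 without it, and neither passed (limma adjusted p = 0.502 and 0.593). SQSTM1 overlaps MGAT4B, at 121 FPKM, on the other strand, so reads may be shared.

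Further lysosomal and autophagy genes were counted in 6 lists. The share that passed was above the 24.8% of all tested genes in the hydrolases and the membrane proteins and below it in the other 4 lists, differences that were not tested. Of 39 tested hydrolases and cofactors outside the 29, 10 rose and 1 fell (28.2%, against 24.8% of all tested genes, with a median log2 fold change of 0.10). FUCA1, alpha-fucosidase, stood at 17.4, 19.5 and 17.4 FPKM in shDLGAP5-1, against 5.80, 4.84 and 5.67 FPKM in shNC-1, a log2 fold change of 1.57 (limma adjusted p = 0.000686). CTSF, another papain-type protease, stood at 10.6, 10.8 and 8.20 FPKM in shDLGAP5-1, against 2.23, 1.95 and 2.28 FPKM in shNC-1, a log2 fold change of 1.78. CTSO, a further cathepsin, and MANBA, the beta-mannosidase that acts after MAN2B1 on the same sugar chains, had log2 fold changes of 1.24 and 1.12. All 4 passed in each fit that left out 1 library. CTSO was at 0.777 to 0.987 FPKM in shNC-1, so it met the 1 FPKM filter only through the group where it was higher. Without shDLGAP5-1 replicate 3, 9 of the 39 rose and 4 fell.

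Of 31 other membrane proteins and transporters 8 rose and 3 fell (35.5%, median 0.25), and 8 rose and 4 fell without shDLGAP5-1 replicate 3. TPCN1, a cation channel of endosomes and lysosomes, stood at 23.3, 35.4 and 30.4 FPKM in shDLGAP5-1, against 8.59, 8.21 and 6.94 FPKM in shNC-1, a log2 fold change of 1.77 (limma adjusted p = 0.00115). SIDT2, a lysosomal nucleic acid transporter, had a log2 fold change of 0.94, ABCB9, a peptide transporter, 0.63, and LAMP3, the inducible LAMP, 0.69. LAMP3 was near the filter, at 1.77 to 2.25 FPKM in shDLGAP5-1 and 0.683 to 1.07 FPKM in shNC-1, and lost its call without the filter. ABCB9 overlaps ARL6IP4, at 50.6 FPKM, and its level is uncertain. NPC1, the membrane partner of NPC2, was named after its values were seen: it fell by 0.58 on the log2 scale (limma adjusted p = 0.0133, and 0.0636 without shNC-1 replicate 2) and overlaps RMC1, at 12.8 FPKM.

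Of 16 other V-ATPase genes 2 rose and 1 fell (18.8%, median −0.09), and 1 rose and 3 fell without shDLGAP5-1 replicate 3. TCIRG1, isoform a3 of the membrane sector, stood at 61.2, 53.2 and 60.7 FPKM in shDLGAP5-1, against 37.4, 39.8 and 40.0 FPKM in shNC-1. ATP6V1F rose by 0.48 and ATP6V1D fell by 0.86 on the log2 scale. TCIRG1 overlaps AP002807.1, at 5.5 FPKM, and ATP6V1D overlaps MPP5, at 11.2 FPKM, so reads may be shared. Of 20 relatives and regulators of TFEB and TFE3, 1 rose and 2 fell (15.0%, median −0.10), and without shDLGAP5-1 replicate 3 RRAGD was lost and 3 fell. RPTOR, the subunit that recruits mTORC1 substrates, had a log2 fold change of −0.74 (limma adjusted p = 0.0150), and among the Rag GTPases, which hold mTORC1 at the lysosome, RRAGC had −0.43 and RRAGD 0.42. Of 17 genes for delivery of enzymes to lysosomes 0 rose and 2 fell (11.8%, median −0.18) in limma, and 0 and 2 had an unadjusted p under 0.05 in these directions. Without shDLGAP5-1 replicate 3, 1 rose and 3 fell. IGF2R, the large mannose 6-phosphate receptor, stood at 7.11, 9.29 and 12.5 FPKM in shDLGAP5-1, against 20.7, 20.5 and 16.8 FPKM in shNC-1, a log2 fold change of −0.96 (limma adjusted p = 0.0144), and AP1M1, an adaptor subunit, had −0.66.

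Of 26 autophagy genes 3 rose and 1 fell (15.4%, median 0.08), and as many without shDLGAP5-1 replicate 3. GABARAP, an ATG8 protein that coats autophagosomes, stood at 109, 115.5 and 84.9 FPKM in shDLGAP5-1, against 39.1, 35.6 and 60.2 FPKM in shNC-1, a log2 fold change of 1.20 (limma adjusted p = 0.00915). ULK1, the kinase that starts autophagy, had a log2 fold change of 0.61, GABARAPL2, a relative of GABARAP, 0.45, and BECN1, part of the lipid kinase complex, −0.73. BECN1 overlaps PSME3, at 62.6 FPKM. Of the genes named in these 4 shorter lists, TCIRG1, GABARAP and ULK1 passed in each fit without 1 library, and calls of the others were lost in 2 to 6 such fits. Their highest adjusted p in these fits ran from 0.0566 for IGF2R to 0.140 for RRAGD.

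**Figure D5:**
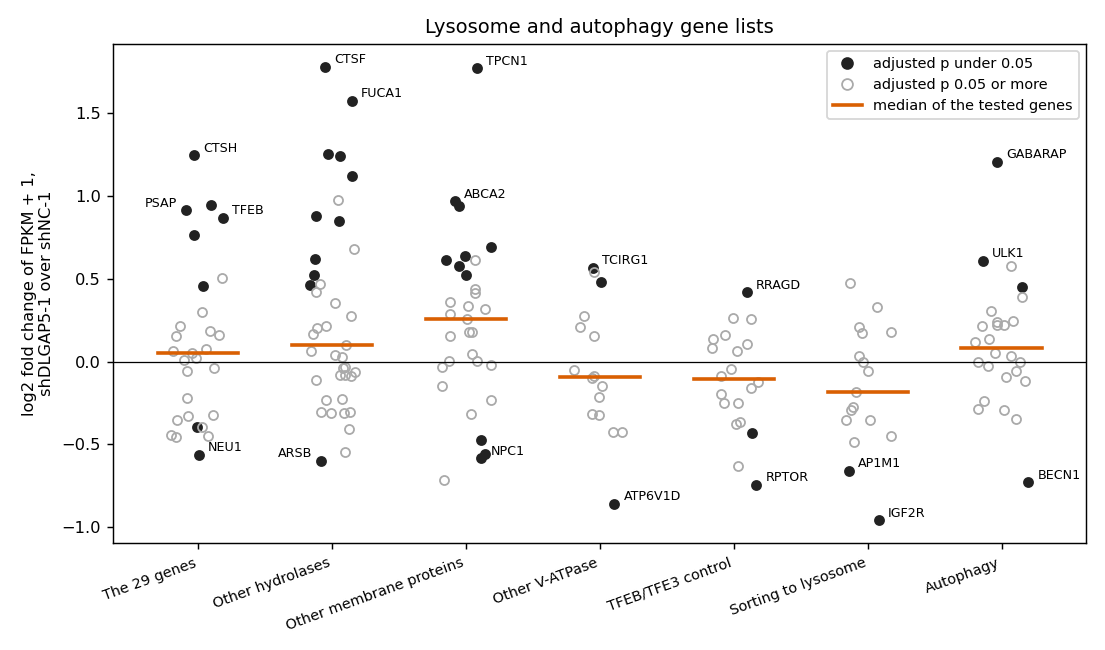
Log2 fold changes of the 29 genes and of 6 further lists, shDLGAP5-1 over shNC-1. Each circle is a tested gene, filled where the adjusted p was under 0.05, and orange bars are list medians. The medians run from −0.18 for sorting to the lysosome to 0.25 for other membrane proteins, against 0.03 for all tested genes.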

How the data were processed

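Libraries were made from total RNA with an mRNA-seq kit, per the labels' protocols, from 3 shDLGAP5-1 and 3 shNC-1 samples. The authors deposited 1 table of 58825 genes with values already normalized, taken here as FPKM (per kilobase of transcript and by depth). Its header names no unit, but library totals differ and low values step with gene length. The sources used here do not give the aligner, quantifier, annotation or use of strand. Of the gene IDs 99.5% are in GENCODE 29, and 51024 have its GRCh38 coordinates. The shDLGAP5-1 columns carry a construct number rather than the gene's name, so their assignment rests on the replicate numbers and the DLGAP5 level.

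A count test had been planned for a table of counts, and limma for normalized values, so limma 3.58.1 (R 4.3.3, empirical Bayes with a trend) was used. It was run on log2(FPKM + 1) for genes reaching 1 FPKM in 3 or more libraries, with Benjamini-Hochberg adjustment. Steps of low values gave approximate depths only (32.9% to 45.3% of values whole within 0.1), so no count test was run. Exact permutation of 3 against 3 libraries cannot go below p = 0.1 and was not used. The fit was also run on simulated data with independent noise and changes only in better expressed genes. That run does not check the fit for a library such as shDLGAP5-1 replicate 3 or for low genes such as TFEB. Other settings tried were 0.1 as pseudocount, 5 FPKM or nothing as filter, 3 scalings (equal totals, median ratio, quantile), removal of length trends, a replicate block, and leaving out each library. Same-numbered libraries did not deviate together (correlations −0.155, 0.0210 and −0.157), so numbers were not taken as pairs. The members and lists were chosen with earlier results of these data known. Of each other list, up to 4 called genes with the smallest p are named.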

Additional observations from a re-analysis of the deposited data

How the results depend on the processing

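CTSH and PSAP kept direction and call in all 14 alternatives, and TFEB in the 13 that tested it, being under the filter of 5 FPKM. Over 405 values of a member under an alternative, 337 kept direction and side of the threshold, 30 lost the call, 11 gained it and 27, of 9 members that did not pass, changed sign. Genes changed numbered 2071 without the filter, 1464 with the replicate block and 1335 to 3141 with 1 library left out. Members changed numbered 4 without the filter (3 higher, 1 lower), 5 with the block (0 lower in limma) and 3 to 8 with 1 library left out (3 to 6 higher, 0 to 3 lower). Lower members numbered 4 with equal totals, 4 after quantile normalization and 5 with length trends removed. The members' median was −0.052 with equal totals, −0.0058 with length trends removed and −0.0072 to 0.094 with 1 library left out, where relative to all genes it was 0.0045 and 0.0039 in the first 2.

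Changed genes in the other lists are given below, and those of all genes moved with the settings too. All genes had 3155 in the main fit, 2071 without the filter, 2244 at 5 FPKM and 2636 with equal totals. They had 3783 with length trends removed, 1464 with the block and 1335 to 3141 with 1 library left out. The filter also set how many genes were tested, for hydrolases 44 without it, 39 at 1 FPKM and 32 at 5 FPKM. Hydrolases had 5 without the filter, 7 at 5 FPKM, 7 with equal totals, 5 with the block and 5 to 13 with 1 library left out. Membrane proteins had 6 with the block and 5 to 12, V-ATPase genes 1 without the filter, 0 with the block and 1 to 4, and regulators of TFEB 5 with length trends removed, 0 with the block and 0 to 3. Sorting genes had 0 without the filter, 1 with length trends removed and 0 to 4, and autophagy genes 2 without the filter, 2 with the block and 2 to 4.

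Signs turned with equal totals for LAMP2 (−0.10), HEXA (−0.052), NPC2 (−0.031), ATP6V1H (−0.081) and ATP6AP1 (−0.044), with median-ratio scaling for LAMP2 (−0.044) and ATP6V1H (−0.026), with length trends removed for LAMP2 (−0.0058), NPC2 (−0.085) and ATP6V1H (−0.068), and after quantile normalization for CTSA (0.018). With 1 library left out the ranges were −0.10 to 0.062 for LAMP2, −0.13 to 0.26 for NPC2, −0.093 to 0.13 for ATP6V1H, −0.13 to 0.19 for ATP6AP1, −0.19 to 0.016 for CLN3, −0.58 to 0.094 for SQSTM1 and −0.24 to 0.58 for SCARB2. Leaving out a library lowers the number of samples, and filters change the number of genes; the cause of the other shifts was not tested. Depth is known only approximately, so low genes such as TFEB carry counting error that could not be given.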
